A study of Mus musculus with 5 samples.

Results

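Lymphotoxin beta (Ltb) and 6 regulators of the transcription factor NF-kB were followed through 4 sorted populations of mouse bone marrow progenitors. The 7 genes, of 27998 in the count matrices, were taken by symbol: the membrane-bound ligand Ltb, the inhibitor gene Nfkbia, the subunit genes Nfkb1, Rel and Rela, and the feedback genes Tnfaip3 and Tnip3. All 7 were found and all had counts in every library. They were selected on their CPM levels and ratios between these libraries, known from an earlier analysis of the same files, so the levels below are descriptions and carry no test.

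The cells were sorted by FACS from the marrow of healthy wild-type C57BL/6 mice, and no population was treated; no source used here gives the age, sex or number of the animals. The labels define LSK cells as Lin-SCA1+KIT+, the compartment that holds the stem cells. The SCA1-negative, KIT-positive gates were split by CD34 and CD16/32 into common myeloid progenitors (CMP, CD34+CD16/32-), granulocyte/monocyte progenitors (GMP, CD34+CD16/32+) and megakaryocyte/erythroid progenitors (MEP, CD34-CD16/32-). Each gate was 1 droplet 3' RNA library, because the 2 CMP samples held identical files and were counted as 1, so differences between gates have no replicate check and cannot be told apart from differences between libraries.

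NF-kB is a family of dimeric transcription factors kept in the cytoplasm by IkB proteins. Signals from receptors of the TNF, interleukin 1 and Toll-like families activate the IKK kinases, which mark IkB for destruction and release the dimers to the nucleus. The genes of IkB alpha (Nfkbia) and A20 (Tnfaip3) are themselves induced by NF-kB and close feedback loops. Lymphotoxin beta anchors lymphotoxin alpha in the membrane as a ligand of the lymphotoxin beta receptor, best known for its part in building lymphoid organs. Nfkb1 encodes p105, the precursor of p50; Rela encodes p65 and Rel encodes c-Rel, and both of these carry transactivation domains. A20 edits ubiquitin chains on signalling proteins, and Tnip3 encodes a member of the ABIN family of A20-binding proteins.

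The genes lie on GRCm38, with GENCODE M21 annotation, at chr17:35194439-35196320 on the plus strand (Ltb), chr12:55489410-55492647 on the minus strand (Nfkbia) and chr3:135584655-135691547 on the minus strand (Nfkb1). Rel lies at chr11:23736847-23770970 on the minus strand, Rela at chr19:5637483-5648130 on the plus strand, Tnfaip3 at chr10:19000910-19015657 on the minus strand and Tnip3 at chr6:65525313-65634040 on the plus strand. All are annotated as protein coding; Mir6973a lies within Ltb and Gm43430 within Nfkb1, each on the strand of its host, and reads of such pairs cannot be told apart.

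RefSeq promoter windows of GRCm38.p6, from 250 bases before to 50 after the annotated start, were found for 6 of the 7 genes. They were searched on both strands for the 10-base NF-kB consensus known as the kB site. Among all 32851 windows of this length 2779 held a match (8.46%), and among the genes here Ltb, Nfkbia, Rel, Tnip3 and the upstream of the 2 Tnfaip3 starts did. The 4 stretches below show these matches in their surroundings, written 5′ to 3′ on the strand of the gene, with the matching bases in capitals and annotated exon bases left off.
Ltb (chr17:35194375-35194438, plus strand): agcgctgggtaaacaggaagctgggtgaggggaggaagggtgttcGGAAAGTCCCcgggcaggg
Nfkbia (chr12:55492648-55492721, minus strand): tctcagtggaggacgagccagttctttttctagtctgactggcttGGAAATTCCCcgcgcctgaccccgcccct
Rel (chr11:23771007-23771106, minus strand): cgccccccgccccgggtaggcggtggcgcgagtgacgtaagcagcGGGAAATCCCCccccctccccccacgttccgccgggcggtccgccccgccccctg
Tnip3 (chr6:65590299-65590397, plus strand): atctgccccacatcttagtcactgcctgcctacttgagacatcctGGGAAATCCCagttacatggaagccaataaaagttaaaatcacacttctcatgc

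The matches begin at position -87 for Ltb, -29 for Nfkbia and -54 for Tnip3, counted from the RefSeq start. The RefSeq window of Tnip3 (65590148-65590447) lies inside its GENCODE span, which begins at 65525313. Its stretch is therefore at an internal start and not upstream of the whole annotated gene. Rel has 2 overlapping matches, at -92 and -91, shown above as a single run of capitals. At the upstream Tnfaip3 start the matches are GGGACACCCC at -125 and GGAAATCCCC at -12. Neither the Rela window nor the second Tnfaip3 window has these letters. A match is a likeness of letters and was not tested as a binding site.

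After filtering, the LSK library held 10870 cells, CMP 3713, GMP 8027 and MEP 6284, with 26919088 to 80273121 unique molecular identifiers (UMIs, each a counted molecule) per library. Median UMIs per cell were lowest in LSK (5991.5), followed by CMP (6904), GMP (9100) and MEP (12578). The labels were set against marker lists. Summed HSC/multipotent markers had 767 counts-per-million of the library's UMIs (CPM) in LSK and 18.5 to 92.7 elsewhere, the granulocyte-monocyte progenitor list had 30184 CPM in GMP and 58.7 to 6564 elsewhere, and the erythroid list had 7380 CPM in MEP and 46.1 to 197 elsewhere. CMP has no list of its own and held cells of several lineages. Any 2 libraries shared 36 to 130 cell barcodes, at most 1.62% of the smaller one. Below, values in parentheses after a level, fold or share are 95% intervals that cover counting error only.

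Ltb, the ligand, was an LSK transcript. LSK had 202 CPM (199 to 206), CMP 5.09 (4.27 to 6.02), MEP 1.37 (1.13 to 1.65) and GMP 1.05 (0.828 to 1.31). LSK stood above every other gate, by 39.8-fold over CMP (33.6 to 47.4), 193-fold over GMP (154 to 244) and 148-fold over MEP (122 to 180). GMP and MEP could not be ordered, since the interval of their log2 ratio ran from -0.82 to 0.05. Their order also turned: without doublets and clusters of under 50 cells, MEP had 0.403 CPM (0.272 to 0.576) and GMP had 0.904 (0.690 to 1.16).

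Nfkbia, the gene of the inhibitor IkB alpha, peaked in CMP instead. CMP had 496 CPM (487 to 504), LSK 190 (187 to 193), GMP 66.6 (64.8 to 68.5) and MEP 40.7 (39.4 to 42.2). The 4 intervals did not overlap, in the order CMP, LSK, GMP, MEP. The CMP level was 2.61-fold that of LSK (2.55 to 2.67), 7.44-fold that of GMP (7.20 to 7.69) and 12.2-fold that of MEP (11.7 to 12.6).

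The 3 subunit genes had 3 different patterns. Nfkb1, the p105/p50 gene, was the flattest, stepping down from LSK (82.0 CPM, 80.0 to 84.1) over CMP (67.9, 64.8 to 71.1) and GMP (57.8, 56.1 to 59.5) to MEP (39.9, 38.5 to 41.3). Its widest gap, LSK over MEP, was 2.06-fold (1.97 to 2.15). Rel, the c-Rel gene, was nearly missing from MEP: CMP had 52.8 CPM (50 to 55.6), LSK 33.7 (32.4 to 35.0), GMP 14.3 (13.5 to 15.2) and MEP 0.162 (0.0862 to 0.277), where 13 UMIs were counted among 80273121. CMP exceeded MEP by 326-fold (190 to 613), LSK by 208-fold (121 to 391) and GMP by 88.4-fold (51.5 to 167). Rela, the p65 gene, had its low point in GMP, with 12 CPM (11.2 to 12.8), against 31.4 in LSK (30.1 to 32.6), 24.4 in MEP (23.4 to 25.5) and 19.6 in CMP (18.0 to 21.4). MEP, in which Rel was scarcest, thus had 2.04-fold the Rela level of GMP (1.89 to 2.21).

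Both feedback genes were low in GMP and MEP but differed between LSK and CMP. Tnfaip3, the A20 gene, was highest in CMP, at 10.7 CPM (9.50 to 12), followed by LSK at 7.42 (6.82 to 8.07), GMP at 1.85 (1.56 to 2.19) and MEP at 1.84 (1.56 to 2.17). CMP exceeded LSK by 1.44-fold (1.25 to 1.66), and the last pair did not differ beyond counting error. Tnip3, the A20-binding gene, followed Ltb. LSK had 50.9 CPM (49.3 to 52.5), CMP 4.87 (4.07 to 5.77), MEP 0.486 (0.345 to 0.664) and GMP 0.368 (0.243 to 0.535). LSK was 10.5-fold over CMP (8.78 to 12.5), 138-fold over GMP (94.9 to 210) and 105-fold over MEP (76.5 to 148), while the intervals of GMP and MEP overlapped.

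**Figure D1:**
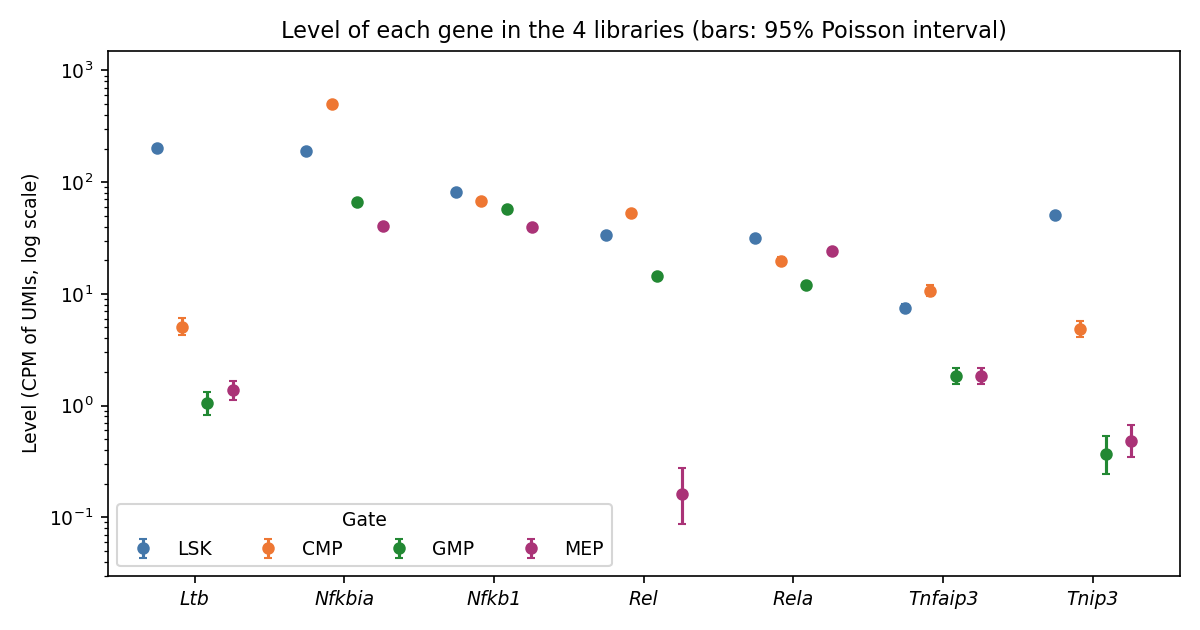
Level of each of the 7 genes in the LSK, CMP, GMP and MEP libraries, in CPM on a log axis; points are single libraries and bars are 95% Poisson intervals. Ltb and Tnip3 are highest in LSK, Nfkbia, Rel and Tnfaip3 in CMP, and Rel in MEP lies at 0.162 CPM.

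A gene was counted as higher where its fold was 2 or more and the higher library had 10 CPM or more. Between LSK and CMP, 3 of the 7 genes met this (Ltb and Tnip3 in LSK, Nfkbia in CMP), beside 14.4% of the 7817 genes with 10 CPM in either library, 12.3% higher in LSK and 2.05% in CMP. LSK exceeded GMP for 5 (Ltb, Nfkbia, Rel, Rela, Tnip3), beside 21% of all genes tested that were higher in LSK, 5.13% higher in GMP and 26.1% in either direction. LSK exceeded MEP for 5 (Ltb, Nfkbia, Nfkb1, Rel, Tnip3), beside 24.9% higher in LSK, 9.16% higher in MEP and 34.1% in either direction. The same 3 genes, Nfkbia, Rel and Tnfaip3, were higher in CMP than in GMP, beside 5.32% of all genes (2.99% were higher in GMP, 8.31% in either direction), and than in MEP, beside 14.6% (10.9% were higher in MEP, 25.5% in either direction). Between GMP and MEP the count was 2, Rel in GMP and Rela in MEP, beside 13.8% higher in GMP, 12.8% higher in MEP and 26.6% in either direction. These comparisons share libraries, and nothing is read from the counts, since the genes were chosen with them known.

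Those background shares lean towards LSK under plain CPM. Of the genes called between LSK and CMP, 85.8% were higher in LSK, but 55.8% with TMM factors and 47.7% with median-of-ratios factors. For LSK against GMP the split went from 80.4% to 46.1% and 38.0%, for LSK against MEP from 73.1% to 43.7% and 38.5%, and for CMP against GMP from 64.0% to 53.4% and 51.2% higher in CMP. TMM lowered every log2 ratio by 0.31 in LSK against CMP, 0.45 in LSK against GMP and 0.44 in LSK against MEP. The leads of Ltb and Tnip3 in LSK and of Nfkbia in CMP kept their direction and their 2-fold size. The order of Nfkb1 between LSK and CMP turned, to log2 -0.04 and -0.10, as did that of Rela between LSK and MEP, to -0.08 and -0.16. In LSK over GMP, Rel (0.79 and 0.70) and Rela (0.94 and 0.85) were then below 2-fold, and Nfkbia was with median-of-ratios factors (0.97). Nfkb1 in LSK over MEP was below it as well (0.60 and 0.52).

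The summed levels of the ligands and of the receptors of the pathway were lowest in MEP, at 3.82 and 16.2 CPM against 41.4 and 335 in LSK. Of 12 TNF family and interleukin 1 ligands listed, LSK exceeded MEP for 2 (Tnfsf10 and Tnfsf14) of the 2 that reached 10 CPM. Of all genes tested, 24.9% were higher in LSK than in MEP. CMP exceeded MEP for 1, Tnf, of 1, beside 14.6% of all genes tested. Lta, whose product pairs with lymphotoxin beta, had 0.106 CPM in LSK and at most 1 UMI in each other library. Of the 14 receptor genes, 5 of the 5 that reached 10 CPM in LSK or MEP were higher in LSK, beside 24.9% of all genes tested. The median log2 ratio of the 10 with a mean of 1 CPM or more was 5.04, against 0.35 over all genes at that level. Ltbr, the receptor of the lymphotoxin heterotrimer, had 16.9 CPM in GMP, 16.6 in LSK, 12.5 in CMP and 3.59 in MEP. Tnfrsf1a, the main TNF receptor, went the same way, with 43.5, 41.9, 28.0 and 3.08 CPM. Cd27, a costimulatory receptor of the TNF family, stepped down from 217 CPM in LSK to 94.5 in CMP, 46.7 in GMP and 3.86 in MEP. Levels of both ligand partners and receptor are RNA levels, and no protein was measured.

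Few genes of the kinase module passed the 2-fold rule. Of the 9 genes of the IKK module, 5 reached 10 CPM in LSK or CMP, 6 in LSK or GMP and 5 in LSK or MEP. The 2-fold rule called 0 of the 5 against CMP and 0 of the 6 against GMP, beside 14.4% and 26.1% of all genes tested. Over all 9 the median log2 ratios were 0.58 and 0.41, beside 0.35 and 0.44 over all genes. Of the 5 tested against MEP 1, Tbk1, was higher in LSK (median of the 9 0.83, beside 0.35), beside 24.9% of all genes tested. Ikbke, a kinase related to the IKK core, had 10.1 CPM in GMP against 3.53 in CMP and 0.785 in MEP. It was the 1 gene of the module past the rule in each of these 2 comparisons, of 4 and 5 tested. Of all genes tested, 2.99% and 13.8% were higher in GMP. Map3k14, the kinase of the noncanonical pathway, stayed under 10 CPM but had 8.73 in LSK and 0.187 in MEP. Ikbkb, the catalytic subunit IKK beta, had 51.6 CPM in LSK, 46.9 in GMP, 41.6 in CMP and 28.4 in MEP. Among 15 adaptors and ubiquitin ligases, 11 reached 10 CPM in each comparison with LSK. Of the 11, 1 (Birc2, an inhibitor of apoptosis protein) was higher in LSK than in CMP and than in GMP. Of all genes tested, 12.3% and 21% were. Higher in LSK than in MEP were 3 of the 11 (Irak1, Irak4 and Birc3), beside 24.9% of all genes tested. By the rule, 0 were lower in LSK.

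Several of the other NF-kB and IkB genes were higher in LSK. Of 7, 5 reached 10 CPM in each comparison with LSK. Of the 5, LSK exceeded CMP for 2 (Relb and Nfkbie), beside 12.3% of all genes tested. LSK exceeded GMP for 4 (Relb, Nfkbie, Nfkbiz, Nfkbid), beside 21%, and MEP for the same 4, beside 24.9%. By this rule 0 were higher in any other gate than in LSK. These are plain CPM values, under which the calls over all genes also leaned towards LSK. Relb, the subunit of the noncanonical pathway that the lymphotoxin beta receptor feeds, had 14.1 CPM in LSK, 4.53 in CMP, 2.70 in MEP and 1.02 in GMP. Nfkbib, the gene of IkB beta, rose from 28.7 CPM in LSK over 33.2 in CMP and 37.5 in GMP to 48.3 in MEP, the gate lowest in Nfkbia. It passed the 2-fold rule in no comparison, and like Nfkbia it was higher in CMP than in LSK. Of the 9 other A20 and deubiquitinase partners, 6 were higher in LSK than in MEP, beside 24.9% of all genes tested. Among them were Tnip1 and Tnip2, the relatives of Tnip3, with 20.9 and 14.6 CPM in LSK against 6.12 and 4.51 in MEP. For these relatives CMP had 13 and 9.66 CPM and GMP 15 and 7.92. None of their gaps from LSK or from CMP came near those of Tnip3. Between GMP and MEP it was otherwise, since the intervals of Tnip3 overlapped there.

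Known targets of NF-kB were mixed between LSK and CMP, and those past the rule were mostly lower in GMP and MEP. Of 20 listed, 13 reached 10 CPM in LSK or CMP. Of these, 4 were higher in LSK (Icam1, Nfkbie, Relb, Ccl5), beside 12.3% of all genes tested, and 2 in CMP (Ccl4 and Cxcl2), beside 2.05%. Nfkbie and Relb were also counted among the other NF-kB and IkB genes above. Cxcl2, a neutrophil chemokine, had 65.9 CPM in CMP, 7.58 in LSK, 1.44 in GMP and 0.0498 in MEP. Ccl3 and Ccl4, inflammatory chemokines, had 411 and 344 CPM in CMP, 253 and 159 in LSK, 14.5 and 7.97 in GMP, and 0.0872 and 0.162 in MEP. They thus had the order of Nfkbia. Against GMP, 7 of the 11 tested were higher in LSK, beside 21% of all genes tested, and 5 of the 8 tested in CMP, beside 5.32%. In both comparisons 0 were higher in GMP, and the medians were 1.96 and 1.01, beside 0.44 and 0.07 over all genes. Against MEP, 9 of the 11 that reached 10 CPM were higher in LSK, beside 24.9% of all genes tested. Sod2 and Tnfaip2 were higher in MEP, with 307 and 137 CPM against 118 and 15.6, beside 9.16% of all genes tested.

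Immediate early genes, which are induced by many stimuli and also during cell handling, were mostly higher in LSK and CMP than in GMP and MEP. All 13 immediate early genes that reached 10 CPM were higher in LSK than in MEP and in CMP than in MEP. Of all genes tested, 24.9% and 14.6% were. Higher in LSK than in GMP and in CMP than in GMP were 12 of 13, beside 21% and 5.32% of all genes tested. Their summed level over 15 genes was highest in LSK (6933 CPM), then CMP (4154), GMP (1241) and MEP (689). Between LSK and CMP the sum ran against Nfkbia. There, 4 of 13 were higher in LSK (Fos, Fosb, Jund, Dusp1), beside 12.3% of all genes tested, and 2 in CMP (Nr4a1, Btg2), beside 2.05%. The part of these genes in the levels of Nfkbia and Tnfaip3 was not tested.

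At the level of single cells, shares were compared after each cell was thinned at random to 2000 UMIs, which left out 36 CMP cells and none elsewhere. Ltb was seen in 30.7% of LSK cells (29.9 to 31.6), 1.41% of CMP (1.06 to 1.85), 0.187% of GMP (0.105 to 0.308) and 0.334% of MEP cells (0.207 to 0.510). Before thinning the shares were 56.5, 3.34, 0.909 and 0.684%. Mpo, a granulocyte gene, was seen in 0.0318% of thinned MEP cells (0.00385 to 0.115), and Car1, an erythroid gene, in 0.125% of thinned GMP cells (0.0598 to 0.230). Neither was spread evenly: Mpo had 40.2 CPM in cluster MEP8 and at most 0.631 in the other MEP clusters, and Car1 had 51.3 CPM in GMP7 and at most 0.165 in the other GMP clusters. They are therefore given as values and not as a measure of free RNA, whose part in the lowest shares was not tested.

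Nfkbia was seen in 52.0% of CMP cells, 27.9% of LSK, 12.4% of GMP and 8.64% of MEP cells at that depth (78.6, 57.6, 42.1 and 36.6% as counted). For Nfkb1 the thinned shares were 15.1, 13.5, 11.6 and 8.34% (LSK, CMP, GMP, MEP; 40.7, 36.8, 39.1 and 38.7% as counted). The unthinned Nfkb1 shares were thus nearly level across gates that differ in depth. Rel was seen in 10.5% of CMP cells, 6.48% of LSK and 2.96% of GMP, but in 3 of 6284 thinned MEP cells (0.0477%, 0.00985 to 0.139). Before thinning, Rel was in 29.8% of CMP, 19.3% of LSK, 11.8% of GMP and 0.191% of MEP cells.

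Rela was seen in 6.23% of LSK, 4.77% of MEP, 4.08% of CMP and 2.37% of GMP cells (19.1, 25.4, 13.3 and 10.3% as counted). Tnfaip3 was sparse, in 2.34% of CMP, 1.48% of LSK, 0.541% of MEP and 0.461% of GMP cells (6.57, 4.71, 2.29 and 1.66% as counted). Tnip3 was seen in 10.5% of LSK cells against 0.897% of CMP, 0.175% of MEP and 0.0498% of GMP (25.5, 3.23, 0.525 and 0.324% as counted). The GMP share of Tnip3 was 4 thinned cells.

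**Figure D2:**
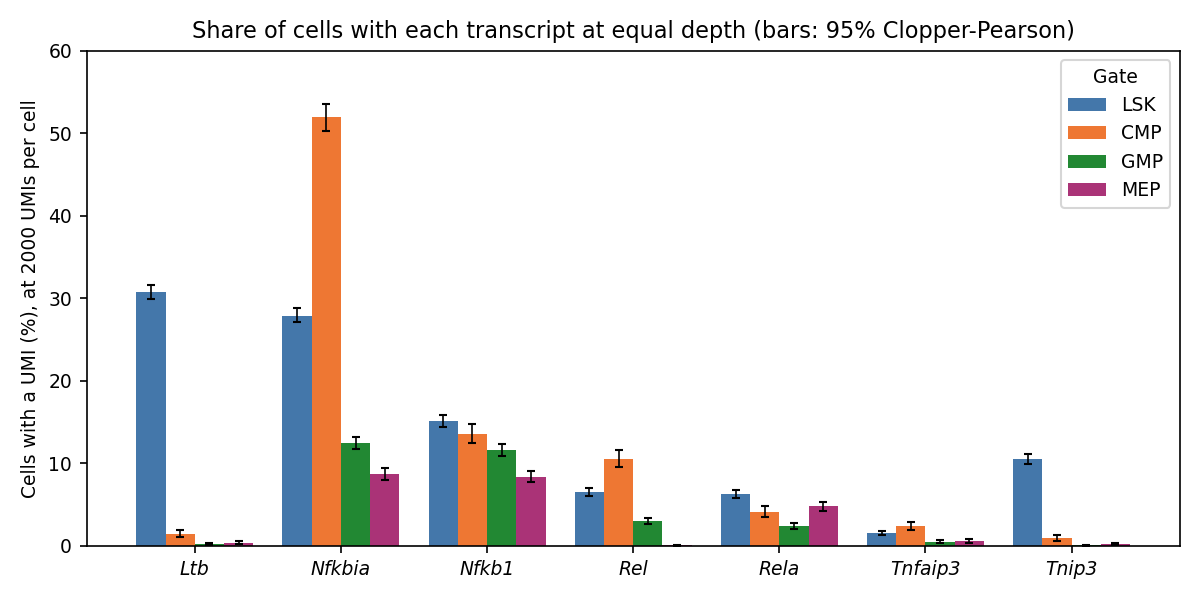
Percent of cells with at least 1 UMI of each gene after thinning every cell to 2000 UMIs, by gate; bars start at 0 and error bars are 95% Clopper-Pearson intervals. Nfkbia reaches 52.0% of CMP cells and Ltb 30.7% of LSK cells, and Rel is near 0 in MEP.

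The Fano factor is the variance over the mean, and is 1 for pure counting noise at equal depth. In single thinned LSK and CMP cells it was highest for Ltb in LSK and for Nfkbia in both gates. In thinned LSK cells the factor of Ltb was 1.97. There, 496 LSK cells (4.56%) had 3 or more Ltb UMIs, with 11 the highest, and the 10% of cells with the most held 57.1% of Ltb UMIs. Nfkbia had Fano factors of 1.88 in CMP and 1.5 in LSK, and 12.3% of CMP cells had 3 or more. For Nfkb1, Rel, Rela, Tnfaip3 and Tnip3 in LSK and CMP the factor lay between 0.991 and 1.15. Their means were 0.00897 to 0.167 UMIs per thinned cell, against 0.507 for Ltb in LSK and 0.391 and 1.02 for Nfkbia in LSK and CMP. The factor also tends to rise with the mean, so this order does not part spread from abundance. In MEP the 40 thinned Ltb UMIs had a Fano factor of 6.14, because 1 cell held 14 of them.

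Cells of each gate were clustered apart, with the 7 genes left out of the variable genes, which gave 38 clusters; a cluster is named "-like" only from listed markers and is otherwise numbered by size. Highest and lowest clusters and ranges are among the 32 clusters of 50 cells or more, and smaller clusters are given by name. Among these, Ltb in LSK was highest in cluster LSK2, HSC/multipotent-like (2065 cells), with 405 CPM, and in the unnamed LSK1 (2195 cells, with Mgst1, Wfdc17 and Ccl3 among its leading genes), with 397 CPM. LSK1 held 31.9% and LSK2 30.1% of the Ltb UMIs of clustered LSK cells. LSK8, led by histone genes, had 279 CPM, and LSK3 157. The megakaryocyte-like LSK7 had 113 CPM, LSK6, led by Cox6a2, Dntt and Arpp21, had 126, and the cycling LSK4 and LSK5 had 65.1 and 79.7. The erythroid-like LSK9 (50 cells) had 23.8 CPM, so that LSK2 exceeded it 17.0-fold (9.50 to 34.1). Ltb was thus not highest where the lymphoid enzyme Dntt was: Dntt had 1277 CPM in LSK6, 133 in LSK1 and 34.2 in LSK2.

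Mature lymphoid cells, which also express Ltb, were few. A T/NK cell-like cluster of 12 LSK cells (LSK11, led by Ncr1, Xcl1, Klrk1 and Cd3d) had 1207 CPM of Ltb from 50 UMIs, and its T/NK markers summed to 1714 CPM. Over whole libraries the 9 T/NK markers summed to 32.4, 5.91, 1.87 and 0.884 CPM (LSK, CMP, GMP, MEP), with 1, 5, 5 and 3 of them at 0. The 7 B cell markers summed to 49.8, 47.0, 54.1 and 2.98 CPM. Without doublets and without clusters of under 50 cells, Ltb in LSK was 198 CPM (195 to 202), against 202 with them.

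In MEP a small dendritic-like cluster carried most of the Ltb. MEP10 held 36 cells led by Cd74, H2-Aa, Jchain and Irf8, and had 300 CPM of Ltb, 76 UMIs, which was 71.7% of the Ltb UMIs of clustered MEP cells. Its 4 plasma cell markers summed to 999 CPM and its T/NK markers to 146. The cluster also held much erythroid RNA: its 13 erythroid markers summed to 3825 CPM, with 2534 of Car1, against 7380 for the list in the whole MEP library. Its markers were thus mixed, and the source of this erythroid RNA was not tested. The megakaryocyte-like MEP8 (211 cells) had 12.8 CPM from 14 UMIs, and no other MEP cluster passed 1.45. Tnip3 in MEP lay mainly in MEP8, with 25 UMIs and 22.9 CPM, beside 19.7 CPM from 5 UMIs in MEP10 and at most 0.290 elsewhere.

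Among CMP clusters Ltb was highest in CMP3, with 15.1 CPM from 37 UMIs, 6.63-fold (3.72 to 12.2) over the monocyte-like CMP1 with 2.27. CMP3 is named erythroid-like by the rule, with 7 of 13 erythroid markers high, but its markers were mixed. Also high were 6 of 8 basophil/mast markers and 4 of 9 megakaryocyte markers, and its leading genes include the basophil/mast genes Fcer1a and Ms4a2. With finer clusters (resolution 1) or 10 neighbours the ratio of the highest to the lowest CMP cluster for Ltb was 14.6 or 14.5. In GMP the 35 cells of the neutrophil-like GMP8 had 63.2 CPM of Ltb from 8 UMIs (27.3 to 125). The basophil/mast-like GMP7 had 4.10 from 6 UMIs (1.51 to 8.93), 8.45-fold (2.26 to 31.6) over GMP3, and GMP1 to GMP6 had 0.486 to 1.56.

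Nfkbia was high throughout CMP with 1 exception among clusters of 50 cells or more. CMP1 to CMP5 and CMP7 had 413 to 622 CPM, the highest being CMP3, while the megakaryocyte-like CMP6 (122 cells) had 160, so that CMP3 was 3.90-fold over it (3.28 to 4.66). The megakaryocyte-like cluster was the lowest in LSK too: LSK7 had 122 CPM against 273 in LSK6, a 2.23-fold gap (2.04 to 2.44). In MEP the megakaryocyte-like MEP8 was instead the highest of the clusters of 50 cells or more, with 130 CPM against 20.4 in the haemoglobin-rich, erythroid-like MEP4, or 6.38-fold (5.16 to 7.87). GMP1 to GMP6 had 47.5 to 82.7 CPM and the basophil/mast-like GMP7 158, while the small GMP8 and GMP9 had 237 and 143 from 30 and 5 UMIs.

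Nfkb1 and Rel had their peaks in CMP7, a dendritic-like cluster of 92 cells led by Cd74, H2-Aa and H2-Eb1. Nfkb1 had 311 CPM there, 5.73-fold (4.10 to 8.12) over the 54.3 of CMP6, while LSK clusters of 50 cells or more ranged from 58.5 to 116. Rel had 106 CPM in CMP7 and 8.86 in CMP6, a 12-fold gap (5.59 to 29.3), and 50.2 to 62.0 in CMP1 to CMP5. In MEP, Rel had at most 3 UMIs in any cluster; the 36 cells of MEP10 held 3, or 11.8 CPM (2.44 to 34.6), and no other MEP cluster passed 0.915. In LSK, Rel was lowest in the erythroid-like LSK9, with 13 CPM from 6 UMIs, then in the megakaryocyte-like LSK7, with 16.6, against 49.6 in LSK6.

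Rela varied little among clusters. Its level ranged from 8.65 CPM (GMP5, neutrophil-like) to 47.6 (LSK9, erythroid-like) over the 32 clusters of 50 cells or more, and within each gate the highest was 1.72 to 1.83 times the lowest. In MEP its top cluster was the erythroid-like MEP4, with 31.4 CPM, the cluster lowest in Nfkbia. Tnfaip3 was highest in CMP3 (23.2 CPM) and CMP5 (18.1), against 6.22 in CMP1. Tnip3 was highest in LSK2, with 109 CPM, then LSK1 with 71.4, and had 24.1 to 41.6 in LSK3 to LSK8 and 4.33 in LSK9.

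**Figure D3:**
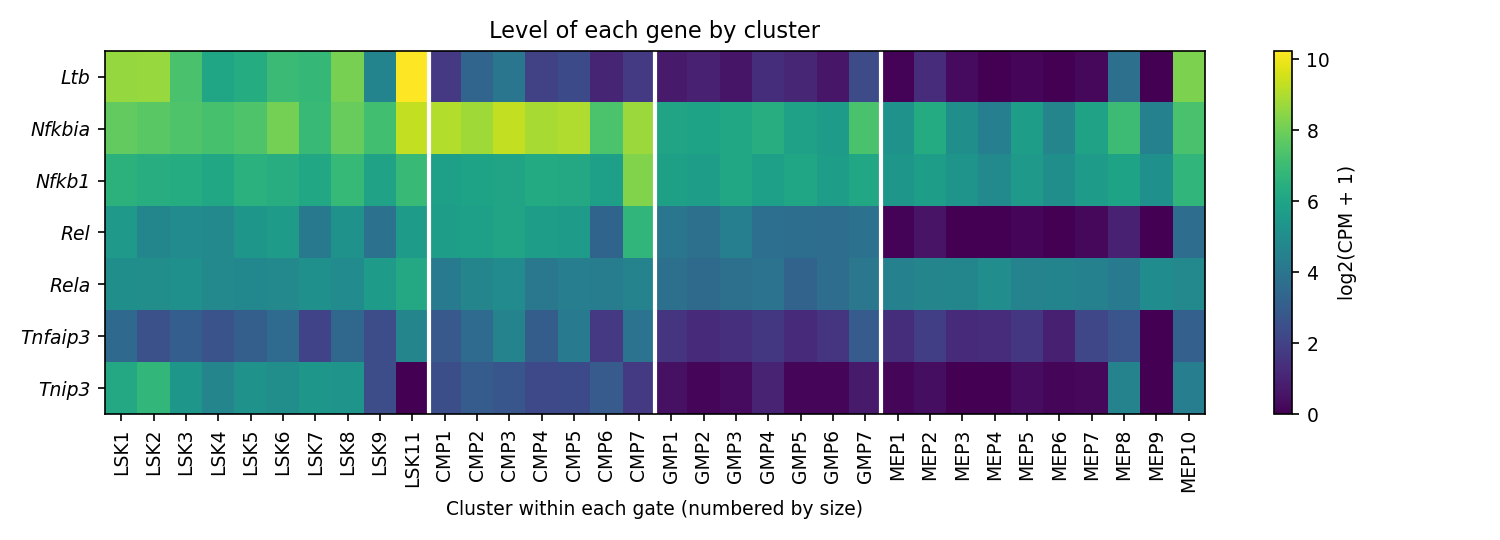
Level of each gene, as log2(CPM + 1), in the 32 clusters of 50 cells or more and the small clusters LSK11 and MEP10; white lines part the gates. The Ltb row is bright in LSK1, LSK2, LSK11 and MEP10, Nfkbia is bright across CMP except CMP6, and the Rel row is dark in MEP.

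Immediate early genes differed between clusters as well, and not always with Nfkbia. Their sum was 2331 CPM in CMP1 and 9175 in CMP3, where Nfkbia had 536 and 622 CPM and Tnfaip3 6.22 and 23.2. In LSK1 and LSK2 the sum was 10810 and 5779 CPM, with Nfkbia at 219 and 193 and Ltb at 397 and 405. Their part in these levels was not tested.

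Across the 32 clusters of 50 cells or more, Ltb and Tnip3 ran closely together, with a Pearson r of 0.95 on log2(CPM + 1). These correlations are descriptions over clusters that share libraries and depth, and much of each rests on the gaps between gates. Nfkbia was most like Tnfaip3 among the 7 genes (r = 0.91), then Rel (0.84), and Rela was like neither Nfkbia (0.15), Nfkb1 (0.09) nor Rel (-0.03). Among 9130 genes, those most like Ltb were Gprc5b (0.97), Chrnb1 (0.97) and Procr (0.96), the gene of the stem cell surface protein EPCR. For Tnip3 they were Irf2 (0.97), Gabbr1 (0.96) and Basp1 (0.96). For Nfkbia they were the immediate early gene Junb (0.93), Smim3 (0.93) and the chemokine gene Ccl4 (0.92), and for Tnfaip3 Junb (0.94), Nfkbia (0.91) and Nr4a1 (0.91). For Rel they were Rgs2 (0.95), Arid5b (0.94) and Sptan1 (0.94), and for Rela Ube2l6 (0.91), Nmt2 (0.90) and Wac (0.89).

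**Figure D4:**
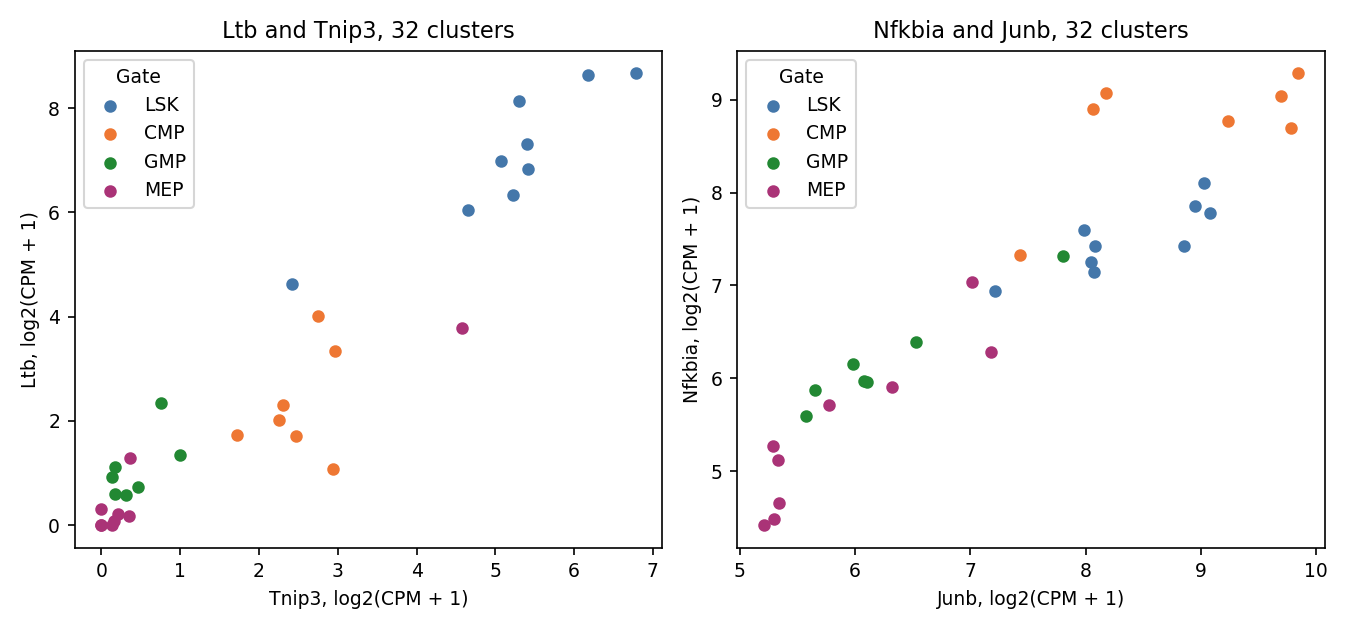
Cluster levels, as log2(CPM + 1), of Ltb against Tnip3 (left) and Nfkbia against Junb (right); each point is 1 of 32 clusters of 50 cells or more, coloured by gate. Ltb and Tnip3 are high together in LSK clusters (r = 0.95), and Nfkbia is higher where Junb is (r = 0.93), with the CMP clusters other than CMP6 on top.

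In single LSK cells without doublets, thinned to 2000 UMIs, Ltb was seen with Procr in 541 cells, 1.47 times (1.35 to 1.59) the number that independent detection gives, and with Tnip3 in 446, 1.39 times (1.26 to 1.52). With Tnfaip3 the ratio was 1.36 (1.03 to 1.75), with the megakaryocyte gene Pf4 1.19 (1.07 to 1.32) and with Nfkbia 1.16 (1.10 to 1.24, 969 cells). For the subunit genes Nfkb1, Rel and Rela, the intervals of the ratios 1.05, 1.09 and 0.951 held 1. Ltb was seen less than independence gives with Dntt, at 0.832 (0.761 to 0.908), with Mpo, at 0.555 (0.480 to 0.639), and with the lymphoid receptor gene Il7r, at 0.334 (0.123 to 0.727, 6 cells). With Flt3, the receptor of multipotent progenitors, the ratio was 1.02 (0.947 to 1.10).

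**Figure D5:**
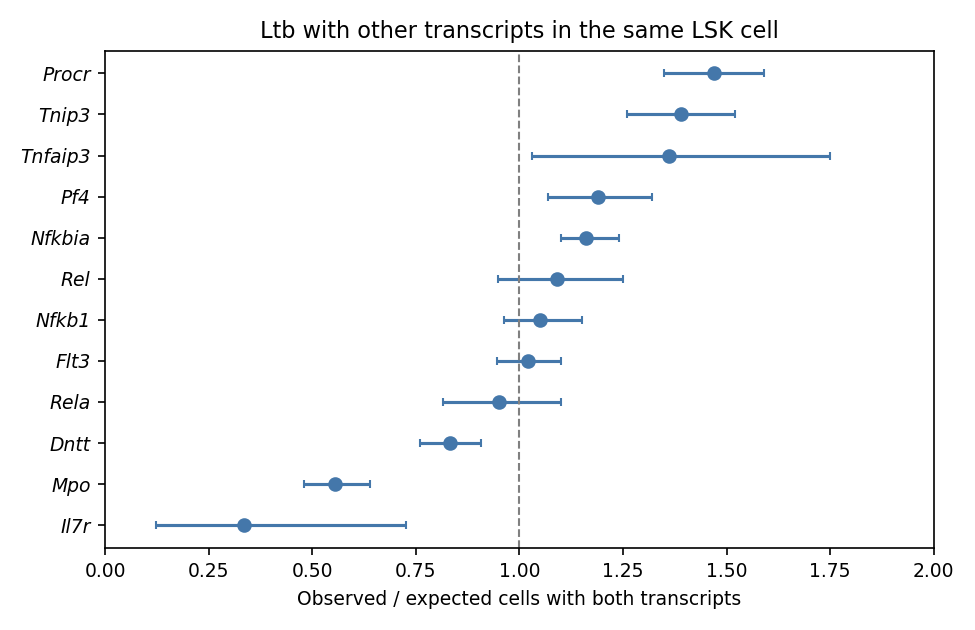
Observed over expected number of thinned LSK cells with both Ltb and the named transcript; points are ratios, bars 95% Clopper-Pearson intervals of the observed share, and the dashed line marks independence. Procr and Tnip3 lie highest, at 1.47 and 1.39, and Mpo and Il7r lowest, at 0.555 and 0.334.

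Nfkbia was seen with Junb more often than independence gives in LSK (1.22, 1.16 to 1.28), CMP (1.16, 1.11 to 1.22) and MEP (1.72, 1.41 to 2.08), and in GMP the ratio of 1.12 had an interval that held 1 (0.941 to 1.32). With Cxcl2 the ratio was 1.73 in LSK (1.24 to 2.35) and 1.45 in CMP (1.24 to 1.68). Nfkbia and Rel shared cells at 1.19 in both LSK (1.04 to 1.36) and CMP (1.05 to 1.35), while Nfkbia with Rela was at 1.04 (0.895 to 1.21) and 0.964 (0.760 to 1.21). Nfkbia with Tnfaip3 gave 1.29 in LSK (0.964 to 1.70), 1.34 in CMP (1.02 to 1.73) and 3.25 in MEP, where only 9 cells had both (1.49 to 6.17). Tnfaip3 was also seen with Egr1 at 1.53 in LSK (1.13 to 2.02) and 1.56 in CMP (1.11 to 2.14). In cells of mixed kinds such ratios hold differences between clusters as well as differences among like cells.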

How the data were processed

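The authors deposited 1 matrix of raw UMI counts per sample. Per the submitters' processing notes, reads were handled with Cell Ranger 2.0.0, CASAVA 1.8.2 and Seurat 2.3.0 on mm10. LSK was an unfiltered matrix of 737280 barcodes, and the 10883 with 2110 UMIs or more were taken as cells (10882 are stated). The CMP matrix held 3738 barcodes (12185 cells are stated), and the others as many as stated. Cells with 500 genes or more and at most 10% mitochondrial UMIs were kept. Doublets, the top 0.8% per 1000 cells by a simulated-pair score, were removed for clusters and cell pairs only (945 LSK, 110 CMP, 515 GMP, 316 MEP cells). 

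Counts were summed per library (CPM), with 3 counts as the floor in ratios. Poisson, conditional binomial and Clopper-Pearson intervals at 95% cover counting error only. Clusters came from 2000 variable genes, 30 components, 15 neighbours and Leiden resolution 0.5 (scanpy 1.11.5, seed 0). A cluster was named where markers of a list dominated its high or leading genes. TMM factors are from edgeR 4.0.16. In simulated libraries for each of the 6 comparisons, with 200 of 27998 genes changed 3-fold, 100% were called and 0 others; only counting noise was simulated. With 1 library per gate no p-value was computed. Named genes were the 7 genes, pathway list members with the highest levels or called, the leading 3 genes of a cluster and the 3 genes most alike to Ltb, Nfkbia and Tnip3. Lta, further leading genes and those most alike to Rel, Rela and Tnfaip3 were picked once their values were known. Members, lists and rules were chosen with earlier results of these data known. Alternatives are in the closing section. Some genes that these rules take are left out.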

Additional observations from a re-analysis of the deposited data

Results flagged for a closer look

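Barcodes of 1 to 100 UMIs in the unfiltered LSK matrix, which entered no comparison, also held all 7 genes. Over 426182 such barcodes with 1179757 UMIs, the level was 220 CPM for Ltb (194 to 248), 173 for Nfkbia (150 to 198), 75.4 for Nfkb1 (60.6 to 92.8) and 41.5 for Tnip3 (30.7 to 54.9). Rela had 29.7 CPM (20.7 to 41.3), Rel 19.5 (12.4 to 29.3, below the 33.7 of LSK cells) and Tnfaip3 9.32 (4.65 to 16.7). Each is above what 3 counts would give there, and what such barcodes hold was not tested.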

How the results depend on the processing

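With 1 library per gate, no difference has a replicate check, and counting intervals understate the error between sorts. No paired analysis was possible because each gate is 1 library, so that the gates share fewer than 2 replicate numbers. A 50 CPM minimum in place of 10 gave 270, 656, 1000, 195, 678 and 745 genes for LSK against CMP, LSK against GMP, LSK against MEP, CMP against GMP, CMP against MEP and GMP against MEP, and no minimum beyond 3 counts gave 4464, 6537, 7597, 2918, 5365 and 5383, against 1123, 2073, 2738, 578, 1851 and 1909; of the 7 genes, it called 5 for CMP against GMP and 5 for CMP against MEP (3 each before). The 50 CPM minimum called 3 of the 7 for LSK against GMP and 0 for GMP against MEP, against 5 and 2; for LSK against GMP, TMM factors called 3 and median-of-ratios factors 2. Of 21 called ratios of the 7 genes, none reversed under the 7 settings run; TMM lost 3 calls, median-of-ratios 4, thinning 1 and the mean of per-cell CPM 1. Median-of-ratios gained 1, Rel in CMP over LSK (log2 -1.02 for LSK against CMP, from -0.65). Leaving out small clusters and doublets, added after the data were seen, turned Ltb in GMP against MEP from log2 -0.38 to 1.17.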
